A study of Mus musculus with 12 samples.

Results

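The genes of the major histocompatibility complex (MHC, H2 in the mouse) and of the machinery that loads it were examined in the tibialis anterior, a hindlimb muscle. Members were all rows of the count table whose symbol begins with H2-, plus Cd74, Ciita, B2m, Tap1, Tap2, Tapbp, Psmb8, Psmb9, Psmb10 and Nlrc5. This gave 53 of the 24421 genes in the table, of which 40 belong to the class I side, 12 to the class II side, and 1, H2-Ke6, codes for a steroid dehydrogenase that lies in the region and presents no antigen. RNA was sequenced from 6 WT mice of strain C57Bl/6 and 6 mice of strain mdx/mTR, all males aged 4 months, with 1 library per mouse. In mdx mice the dystrophin gene Dmd is mutated, so that fibres lack this membrane-anchoring protein, and mTR stands for the mouse telomerase RNA, listed as Terc. The zygosity and generation of the mTR allele, and whether the WT mice were littermates, are not given in the sources used here. With only these groups, what belongs to Dmd, to mTR or to the strain background cannot be told apart.

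Class I molecules pair a heavy chain (H2-K, H2-D and the non-classical Q, T and M genes) with beta-2 microglobulin. They show peptides that the proteasome cuts in the cytosol and the TAP transporter brings into the endoplasmic reticulum. Most cell types make class I, although muscle fibres are known for making little of it, and its genes are induced by interferons through the transactivator Nlrc5. Class II molecules pair an alpha and a beta chain, are guarded by the invariant chain Cd74, and receive peptides in endosomes with the help of H2-DM. They are made mainly by macrophages, dendritic cells and B cells, and their genes are driven by the transactivator Ciita. Neither Ciita nor Nlrc5 binds DNA itself. Both dock on a set of factors that sit on the conserved X and Y boxes of MHC promoters.

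Promoter sequences are shown for 4 class II and 4 class I side genes because promoters of both classes carry X and Y boxes, whereas the mRNA of the 2 classes differed between WT and mdx/mTR to different extents. Each stretch runs 5′ to 3′ on the gene's own strand from 150 bases before to 20 bases after the RefSeq start in GRCm38.p6. Capitals mark ATTGG (the core of the Y box), TGACG or TGATG (the core of the X2 box and a variant), TTCNNNGAA (a gamma-activated site) and a form of the interferon-stimulated response element, a pair of GAAA separated by any NN, on either strand, with overlapping matches merged. The class II stretches are H2-Aa at chr17:34287804-34287973 on the minus strand, H2-Eb1 at chr17:34305717-34305886 on the plus strand, H2-DMb1 at chr17:34153041-34153210 on the plus strand and H2-Ob at chr17:34238755-34238924 on the plus strand.
H2-Aa: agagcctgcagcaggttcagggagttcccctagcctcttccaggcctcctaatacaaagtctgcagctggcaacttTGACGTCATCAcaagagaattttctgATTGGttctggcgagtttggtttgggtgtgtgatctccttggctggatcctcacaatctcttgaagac
H2-Eb1: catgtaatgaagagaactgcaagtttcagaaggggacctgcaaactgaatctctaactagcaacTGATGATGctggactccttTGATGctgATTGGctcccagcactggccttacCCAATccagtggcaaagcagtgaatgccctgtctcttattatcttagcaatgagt
H2-DMb1: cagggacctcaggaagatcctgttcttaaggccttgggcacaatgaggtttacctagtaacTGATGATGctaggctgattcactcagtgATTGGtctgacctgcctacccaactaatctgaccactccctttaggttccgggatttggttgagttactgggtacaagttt
H2-Ob: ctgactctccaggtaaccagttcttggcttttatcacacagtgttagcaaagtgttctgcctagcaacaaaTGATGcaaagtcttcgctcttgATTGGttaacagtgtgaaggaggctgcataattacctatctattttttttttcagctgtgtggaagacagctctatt

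The class I stretches are H2-K1 at chr17:34000328-34000497 on the minus strand, H2-D1 at chr17:35262944-35263113 on the plus strand, B2m at chr2:122147537-122147706 on the plus strand and H2-T23 at chr17:36032682-36032851 on the minus strand.
H2-K1: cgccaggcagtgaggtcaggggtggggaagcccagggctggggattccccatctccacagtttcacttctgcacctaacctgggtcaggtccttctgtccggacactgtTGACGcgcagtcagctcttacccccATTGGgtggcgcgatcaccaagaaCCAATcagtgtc
H2-D1: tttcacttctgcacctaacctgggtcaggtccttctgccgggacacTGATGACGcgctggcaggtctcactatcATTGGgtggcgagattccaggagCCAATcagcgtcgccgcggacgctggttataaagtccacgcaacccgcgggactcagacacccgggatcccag
B2m: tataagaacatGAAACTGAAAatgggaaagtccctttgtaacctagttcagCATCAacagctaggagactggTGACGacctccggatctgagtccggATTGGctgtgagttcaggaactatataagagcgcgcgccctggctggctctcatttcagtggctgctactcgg
H2-T23: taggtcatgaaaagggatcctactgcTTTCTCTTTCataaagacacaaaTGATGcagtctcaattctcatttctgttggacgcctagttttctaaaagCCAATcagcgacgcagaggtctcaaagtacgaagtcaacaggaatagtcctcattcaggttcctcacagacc

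Promoters (250 bases before to 50 after the start) were searched, and a gene was counted when any of its entries held the letters. ATTGG was present in all 6 tested class II genes that were searched and in 9 of 12 such class I side genes, against 41.1% of 27025 genes and 37.4% of 32851 single promoters. H2-DMa is counted only through the second of its 2 starts, here and for the X2 variant. TGACG was present in 1 of the 6 class II and 7 of the 12 class I side genes, against 23.0% of genes and 20.8% of promoters. TGATG, added to the search after the sequences had been read, was present in 6 of 6 and 9 of 12, against 42.9% of genes and 39.3% of promoters. The spacing of these letters was then measured, by a rule chosen after the sequences had been read. TGACG or TGATG followed on the same strand by ATTGG, with 22 to 26 bases from first base to first base, occurred in 0.740% of genes and 0.667% of promoters. It occurred in 5 of the 6 class II genes, at 26 bases in H2-Aa, 25 in H2-DMb1 and H2-DMb2, 24 in H2-Eb1 and 22 in H2-Ob. It also occurred in 4 of the 12 class I side genes, at 25 bases in each of B2m, H2-K1, H2-D1 and H2-M3. The limits of 22 and 26 bases equal the shortest and longest of these class II spacings, so the class II count is not independent of the rule. A class I side pair in H2-Q4, TGATG at -107 and ATTGG at -79 from the start, falls outside the limits. Of the interferon-stimulated response element, only the form marked above was searched. That form was found in 2 of 12 class I side genes (B2m and H2-T23) and 0 of 6 class II genes. Its background was 3.99% of genes and 3.44% of promoters. Other forms were not searched, so genes without a match, H2-K1 and H2-D1 among them, cannot be said to lack the element. TTCNNNGAA was present in 2 of 12 class I side and 1 of 6 class II genes, against 9.55% of genes and 8.30% of promoters. These are matches of letters in short windows and do not show that a factor bound there. H2-Ab1, Ciita, Nlrc5 and Tap2 have no entry in the promoter table. Cd74, on chromosome 18, was left out of the search of members, so the class II counts do not cover it.

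Most members lie in a single cluster. On GRCm38, 44 of the annotated members lie on chromosome 17 between Tapbp, starting at 33915899, and H2-M2, ending at 37483552, a span of 3.57 Mb. Ciita lies on chromosome 16, Cd74 on 18, B2m on 2, and Nlrc5 and Psmb10 on 8. Of the 53 members, 28 had enough counts to be tested, 18 on the class I side, 9 on the class II side and H2-Ke6. Of these, 26 passed the filter on low counts in both groups taken singly. H2-Q10 passed only through the mdx/mTR libraries and H2-DMb2 only through libraries of both groups together.

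Library totals were between 35136327 and 60330410 counts. Dmd ranged from 228 to 244 CPM (counts scaled to a common library total) in WT and from 35.2 to 56.4 CPM in mdx/mTR, without overlap, while Terc had 2 counts in all 12 libraries, both in 1 WT library, and checks no label. The muscle fibre markers Ckm, Acta1, Mb, Tnnt3 and Myh4 were among the abundant genes of every library, with a summed level of 89230 to 142900 CPM. Of 13937 genes tested with edgeR's quasi-likelihood test at a Benjamini-Hochberg adjusted p below 0.05, 48.3% differed between the groups, 25.0% being higher and 23.4% lower in mdx/mTR. The labels name the samples singly but do not state how the animals were bred or handled, so p-values measure the spread between these 12 samples.

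Before the comparisons, 2 libraries need a description. WT replicate 6 had the highest level among the WT libraries for 25 of the 28 tested members, whereas it was highest for 12.4% of all tested genes. Its level over the mean of the other 5 WT libraries was 1.87-fold in the median class I side member (1.19 to 4.79), 1.55-fold in the median class II side member (1.08 to 2.16) and 0.994-fold in the median of all tested genes. Nlrc5 was 4.79-fold, Tap1 4.10-fold, H2-Q5 3.40-fold, Psmb8 2.95-fold and H2-Q4 2.62-fold above the other WT libraries there. WT replicate 6 lay above all 6 mdx/mTR libraries for 10 of 18 class I side members and for 0 of 9 class II side members. The interferon response factor Irf1 moved with it, at 21.6 CPM there against a WT median of 11.6 CPM. Ifng, the gene of interferon gamma, had 0 counts in every WT library, and the part of interferon in these values was not tested. Among mdx/mTR libraries, replicate 5 was highest for 27 of the 28 members (29.0% of all genes), with a median of 1.42-fold over the other 5 on the class I side and 1.54-fold on the class II side. Member estimates that moved by more than 1.5 times without WT replicate 6 are given with and without it.

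**Figure D1:**
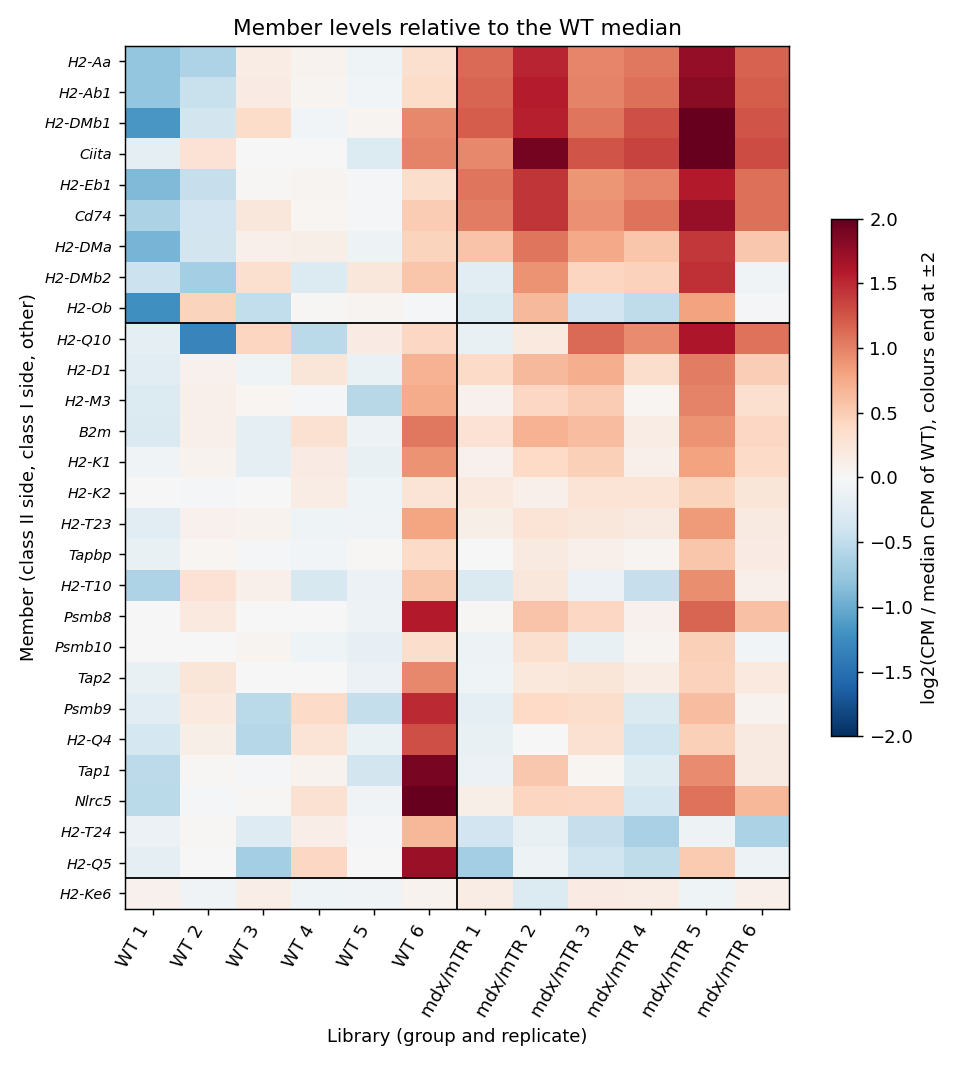
Level of each tested member in each library as log2 of its CPM over the median CPM of the 6 WT libraries, with colours ending at ±2. Rows are grouped into class II side, class I side and H2-Ke6, and columns are the 6 WT and 6 mdx/mTR libraries. The upper block is raised across the mdx/mTR columns, while the middle block is raised most in the WT replicate 6 column, where Nlrc5 is 4.79-fold above the other WT libraries.

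Class II mRNAs were higher in mdx/mTR muscle than in WT muscle. Of the 9 tested class II side members, 7 rose (77.8%, against 25.0% of all tested genes), 0 fell and 2 were not called, with a median log2 fold change of 1.30 (0.26 to 1.40) against 0.0137 over all tested genes. In 6 of the 9, all 6 mdx/mTR libraries lay above all 6 WT libraries, an order seen for 12.6% of all tested genes. The 3 chain genes rose by nearly the same factor, and the invariant chain, the peptide editor H2-DM and the transactivator Ciita rose with them.

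H2-Ab1, the beta chain of the I-A molecule, ranged from 17.8 through a median of 30.3 to 39.2 CPM in WT and from 60.2 through 68.9 to 106 CPM in mdx/mTR. The highest WT library (replicate 6) stayed below the lowest mdx/mTR library (replicate 3), and the rise on the log2 scale was 1.40 ± 0.18 (SE, from edgeR's quasi-likelihood test, adjusted p 4.6e-05). H2-Aa, the alpha chain of the same molecule, ranged from 22 through 37.8 to 47.1 CPM in WT and from 74.1 through 84.2 to 127 CPM in mdx/mTR. Its groups did not overlap either, with WT replicates 1 and 2 the lowest of all libraries, and its log2 fold change was 1.40 ± 0.19 (adjusted p 5.2e-05). H2-Eb1, the beta chain of the I-E molecule, ranged from 17.4 through 32.1 to 40.8 CPM in WT and from 59.0 through 68.0 to 96.1 CPM in mdx/mTR, again without overlap (log2 fold change 1.30 ± 0.18, adjusted p 6.7e-05). The alpha chain of I-E, listed as the pseudogene H2-Ea-ps, had 0 counts in all 12 libraries. C57BL/6 mice are known to carry a disabled copy of that gene and to make no I-E molecule.

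Cd74, which blocks the peptide groove of new class II molecules and escorts them to endosomes, ranged from 52.6 through 81.4 to 116 CPM in WT. In mdx/mTR it ranged from 153 through 174 to 273 CPM. Groups did not overlap, replicate 5 being the highest mdx/mTR library and replicate 6 the highest WT library, and the log2 fold change was 1.24 ± 0.18 (adjusted p 0.00012). Summed over H2-Aa, H2-Ab1, H2-Eb1, H2-Eb2 and H2-Ea-ps, class II chains ranged from 57.2 to 127 CPM in WT and from 193 to 329 CPM in mdx/mTR. This was a 2.58-fold ratio of means, to which H2-Eb2 gave at most 0.186 CPM in any library and H2-Ea-ps 0. Counts of Cd74 per count of these chains, not corrected for length, were 0.803 to 0.921 in WT and 0.757 to 0.835 in mdx/mTR, so the ratio between escort and chains moved far less than either level.

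Ciita, the switch for the class II genes, was low in both groups. It ranged from 1.54 through 1.87 to 3.72 CPM in WT and from 3.64 through 4.71 to 7.58 CPM in mdx/mTR, and its log2 fold change was 1.31 ± 0.23 (adjusted p 0.00047). The groups overlapped only because WT replicate 6 (3.72 CPM) lay just above mdx/mTR replicate 1 (3.64 CPM). Without WT replicate 6 the groups did not overlap and the log2 fold change was 1.54 (adjusted p 8.4e-05).

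The loading molecules differed among themselves. H2-DMa, the alpha chain of the editor that exchanges the invariant chain remnant for peptide, ranged from 2.11 through 4.01 to 5.44 CPM in WT and from 5.83 through 6.38 to 10.7 CPM in mdx/mTR. The groups did not overlap, and the log2 fold change was 0.92 ± 0.21 (adjusted p 0.0026). H2-DMb1, its beta chain, ranged from 0.861 through 1.93 to 3.78 CPM in WT and from 4.07 through 4.68 to 7.73 CPM in mdx/mTR (log2 fold change 1.32 ± 0.27, adjusted p 0.0012). Groups did not overlap here either, but H2-DMb1 shares 27.2% of its 50-base stretches with H2-DMb2, so reads can be split between the pair, and 10.4% of the exonic bases of H2-DMa lie opposite Brd2. H2-DMb2 was not called (log2 fold change 0.57, adjusted p 0.17), nor was H2-Ob (0.26, adjusted p 0.49), a chain of H2-DO, the B cell inhibitor of H2-DM. Without mdx/mTR replicate 5 these estimates were 0.33 and 0.09, and without WT replicate 2 that of H2-Ob was 0.40. H2-Oa, the other chain of H2-DO, had 22 counts over the WT and 36 over the mdx/mTR libraries, and H2-Eb2 had 20 and 36. Both were too low to be tested and are named only to account for the class II side.

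**Figure D2:**
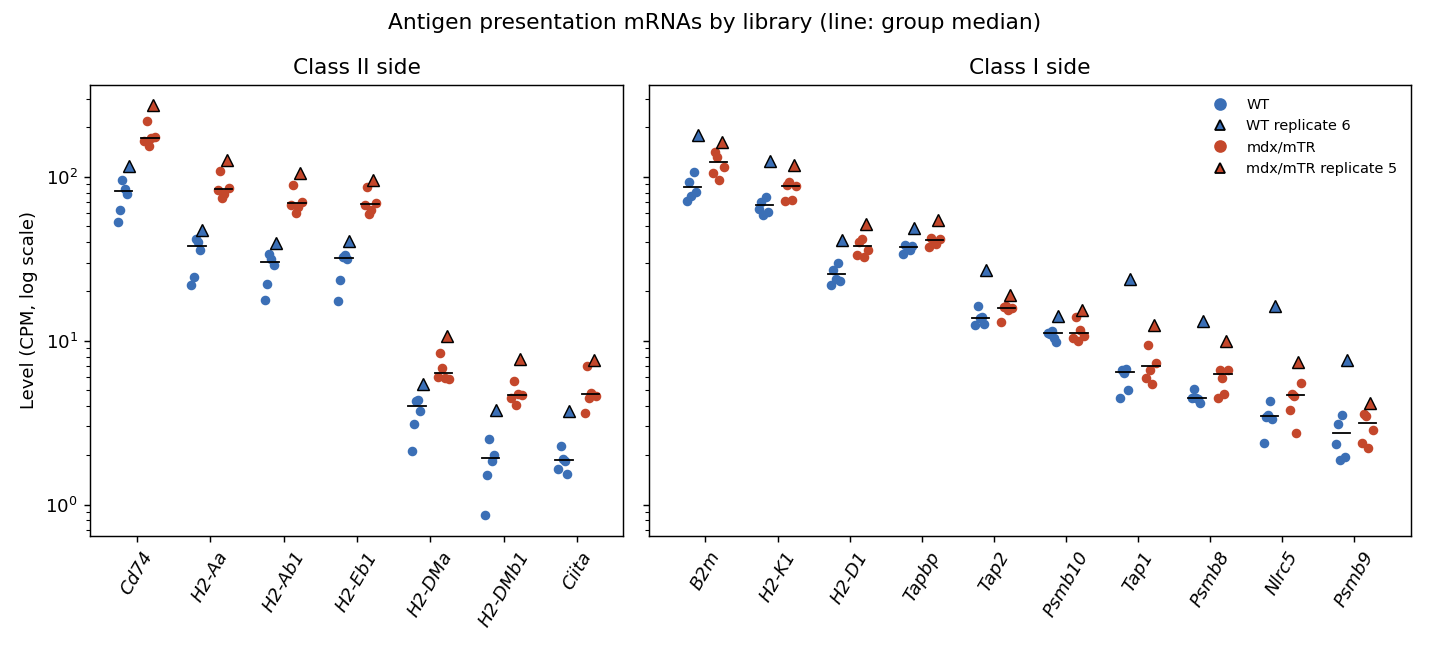
CPM on a log axis in each library for 7 class II side and 10 class I side members, with WT in blue, mdx/mTR in red, triangles for WT replicate 6 and mdx/mTR replicate 5, and a line at each group median. In 6 of the 7 class II genes shown every red point lies above every blue point. In the class I genes shown the groups overlap, and WT replicate 6 is the highest blue point of each.

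Class I mRNAs did not follow the same pattern. Of 18 tested class I side members, 2 rose (H2-D1 and H2-Q10), 1 fell (H2-T24) and 15 were not called, with a median log2 fold change of 0.10 (-0.59 to 0.95). The share called higher among them, 11.1%, lay below the 25.0% of all tested genes, and 0 of 18 had all mdx/mTR libraries above all WT libraries. Without WT replicate 6, 7 of the 18 were called higher against 22.9% of all genes tested in that fit, and the median was 0.32. Those 7 were B2m, H2-K1, H2-D1, Psmb8, H2-T23, H2-M3 and H2-Q10. H2-Q10, counted in both fits, had passed the filter over 12 libraries only through mdx/mTR, the group where it was higher. Leaving out only mdx/mTR replicate 5 moved estimates the other way, to 0.12 for H2-K1, 0.22 for B2m, 0.05 for H2-T23, 0.22 for H2-M3 and 0.05 for Tapbp. In that fit 1 of the 18 (H2-D1) was called higher, against 3163 of the 13966 genes tested in it. With both libraries left out, 6 were called higher, against 20.8% of genes. The class II side had 7 calls in each of these fits. Setting only WT replicate 6 aside, all mdx/mTR libraries lay above the other 5 WT libraries for 7 class II side members and for H2-D1 and H2-T23 on the class I side, an order seen for 13.7% of all tested genes.

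Among the classical heavy chains, H2-K1 ranged from 58.7 through 67.0 to 125 CPM in WT and from 71.1 through 88.0 to 117 CPM in mdx/mTR. WT replicate 6 was the highest of all 12 libraries, the next WT library was at 75.1 CPM, and the log2 fold change was 0.22 ± 0.18 (edgeR, adjusted p 0.32). Without that library it was 0.42 (adjusted p 0.012). H2-D1 ranged from 21.8 through 25.4 to 41.0 CPM in WT and from 32.3 through 37.7 to 51.4 CPM in mdx/mTR. It overlapped only through WT replicate 6, rose by a log2 fold change of 0.49 ± 0.15 (adjusted p 0.016), and without that library by 0.63 (adjusted p 0.0012). H2-D1 shares 14.3% and H2-K1 8.79% of their 50-base stretches with other genes, mostly other H2 genes. H2-L, another classical symbol, is listed at 0.

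B2m, the light chain of all these molecules, ranged from 71.0 through 86.8 to 180.5 CPM in WT and from 95.8 through 124 to 162 CPM in mdx/mTR. Its highest value was again in WT replicate 6, and the log2 fold change was 0.31 ± 0.21 (adjusted p 0.23), or 0.55 without that library (adjusted p 0.0062). Counts of B2m per count of class I heavy chains were 0.619 to 0.772 in WT and 0.707 to 0.853 in mdx/mTR.

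Of the non-classical heavy chains, 8 of 29 were tested. H2-T23 codes for Qa-1, which holds a peptide from other class I chains and is read by a receptor of NK cells. It ranged from 7.97 through 9.24 to 16.1 CPM in WT and from 10.02 through 10.7 to 16.6 CPM in mdx/mTR (log2 fold change 0.19, adjusted p 0.38), and the 2 highest libraries were WT replicate 6 and mdx/mTR replicate 5. Leaving out WT replicate 6 gave 0.36 (adjusted p 0.032). H2-M3, which shows formylated bacterial and mitochondrial peptides, went from 0.36 (adjusted p 0.17) to 0.55 (adjusted p 0.026) in the same way. H2-T24 ranged from 4.47 through 5.32 to 8.45 CPM in WT and from 3.39 through 3.98 to 4.94 CPM in mdx/mTR. Its groups overlapped, and it fell by 0.49 ± 0.15 on the log2 scale (adjusted p 0.017), a call that was lost when libraries were scaled by their totals alone (log2 fold change -0.33, adjusted p 0.13).

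H2-Q4 ranged from 8.74 through 13.0 to 31.8 CPM in WT and from 9.93 through 13.9 to 18.1 CPM in mdx/mTR, with WT replicate 6 far above the rest (log2 fold change -0.15, adjusted p 0.67, and 0.20 without that library). H2-Q10, known as a secreted class I molecule of the liver, was near the limit of detection, at 0.140 to 0.472 CPM in WT and 0.314 to 1.07 CPM in mdx/mTR. It rose by a log2 fold change of 0.95 ± 0.34 (adjusted p 0.031), but it had passed the filter only through mdx/mTR. The call was lost in 6 of the 12 fits that left out 1 library, with limma-voom (adjusted p 0.061), and with WT replicate 6 and mdx/mTR replicate 5 left out together (adjusted p 0.063). The libraries whose omission ended it were WT replicates 1, 2 and 4 and mdx/mTR replicates 3, 5 and 6. H2-K2, annotated as a transcribed pseudogene, was at 0.20 (adjusted p 0.11), H2-Q5, annotated as a polymorphic pseudogene, at -0.59 (adjusted p 0.19, and -0.11 with adjusted p 0.75 without WT replicate 6) and H2-T10, which shares 42.9% of its stretches with other genes and mostly with H2-T22, at 0.10 (adjusted p 0.77, and 0.23 without WT replicate 6).

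The genes that supply class I peptides were not called in the fit of 12 libraries. Tap1, a subunit of the peptide transporter, ranged from 4.5 through 6.46 to 24.0 CPM in WT and from 5.46 through 7 to 12.4 CPM in mdx/mTR (log2 fold change -0.17 ± 0.38, adjusted p 0.73). The next WT library after replicate 6 was at 6.77 CPM, and without replicate 6 the log2 fold change was 0.43 (adjusted p 0.10). Tap2, its partner, ranged from 12.4 through 13.8 to 27.0 CPM in WT and from 13.0 through 15.9 to 19.1 CPM in mdx/mTR (-0.01, adjusted p 0.97, and 0.20 without WT replicate 6). Tapbp, the tapasin that bridges heavy chain and transporter, ranged from 33.9 through 37.4 to 49.0 CPM and from 37.2 through 41.2 to 54.8 CPM (0.14, adjusted p 0.28, and 0.21 without WT replicate 6). In all 3 the groups overlapped and the highest WT library was replicate 6. Nlrc5, the class I transactivator, ranged from 2.39 through 3.48 to 16.2 CPM in WT and from 2.72 through 4.67 to 7.37 CPM in mdx/mTR. Its estimate had a wide error (-0.21 ± 0.42, adjusted p 0.70) and was 0.49 without WT replicate 6 (adjusted p 0.087). For Tap1, Tap2, H2-Q4, Nlrc5 and Psmb9 the sign of the estimate changed with the setting, and for Psmb8, Psmb10 and H2-T10 it changed without mdx/mTR replicate 5, so no direction is given for these genes.

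Psmb8, Psmb9 and Psmb10 replace Psmb5, Psmb6 and Psmb7 as the catalytic subunits of the immunoproteasome. Psmb8 ranged from 4.15 through 4.44 to 13.3 CPM in WT and from 4.5 through 6.26 to 9.93 CPM in mdx/mTR (log2 fold change 0.10, adjusted p 0.80, and 0.50 with adjusted p 0.036 without WT replicate 6). Psmb9 ranged from 1.86 through 2.72 to 7.66 CPM and from 2.23 through 3.17 to 4.15 CPM (-0.13, adjusted p 0.75, and 0.28 with adjusted p 0.29 without WT replicate 6). Psmb10 ranged from 9.87 through 11.1 to 14.2 CPM and from 9.98 through 11.1 to 15.4 CPM (0.08, adjusted p 0.62, and 0.15 without WT replicate 6). The groups overlapped in all 3, and WT replicate 6 was the highest WT library in each. Of the constitutive partners, Psmb5 rose (0.25, adjusted p 0.0023), while Psmb6 (0.13, adjusted p 0.075) and Psmb7 (-0.07, adjusted p 0.37) were not called.

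Ratios within a library do not depend on the scaling between libraries. Counts of Psmb8 per count of Psmb5 were 0.124 to 0.402 in WT, the highest in replicate 6, and 0.111 to 0.284 in mdx/mTR. The mean log2 ratio differed by -0.05 (two-sided exact permutation test, p 0.84, also after Benjamini-Hochberg adjustment over 4 ratios). Psmb9 per Psmb6 was 0.0175 to 0.0744 and 0.0184 to 0.0419 (difference -0.10, exact p 0.80, adjusted 0.84). Psmb10 per Psmb7 was 0.0497 to 0.0766 and 0.0504 to 0.102 (difference 0.14, exact p 0.47, adjusted 0.84). Without WT replicate 6 these differences were 0.21, 0.18 and 0.22 (exact permutation tests, p 0.46, 0.53 and 0.29, each 0.53 after adjustment). The groups overlapped in each, so no shift in subunit mRNA ratio was detectable beyond the spread between libraries. Psmb5 shares 57.1% of its stretches with other genes, mainly pseudogenes, which can move its count.

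The fourth ratio set class II against class I. Counts of H2-Ab1 per count of H2-K1 ranged from 0.279 through 0.366 to 0.579 in WT and from 0.649 through 0.903 to 1.01 in mdx/mTR. Every mdx/mTR library lay above every WT library, and the mean log2 ratio was 1.17 higher (two-sided exact permutation test, p 0.00216, the smallest this design allows, adjusted p 0.00866 over the 4 ratios). Without WT replicate 6 the difference was 1.11 (exact p 0.00433, the smallest possible, adjusted p 0.0173). Summed class I heavy chains ranged from 112 to 234 CPM in WT (142 ± 46.6, mean ± SD, n = 6) and from 136 to 220 CPM in mdx/mTR (166 ± 31.0, n = 6), a 1.16-fold ratio of means that became 1.34-fold without WT replicate 6. Class II chains per class I heavy chain, not corrected for length, were 0.498 to 0.964 in WT and 1.11 to 1.72 in mdx/mTR.

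**Figure D3:**
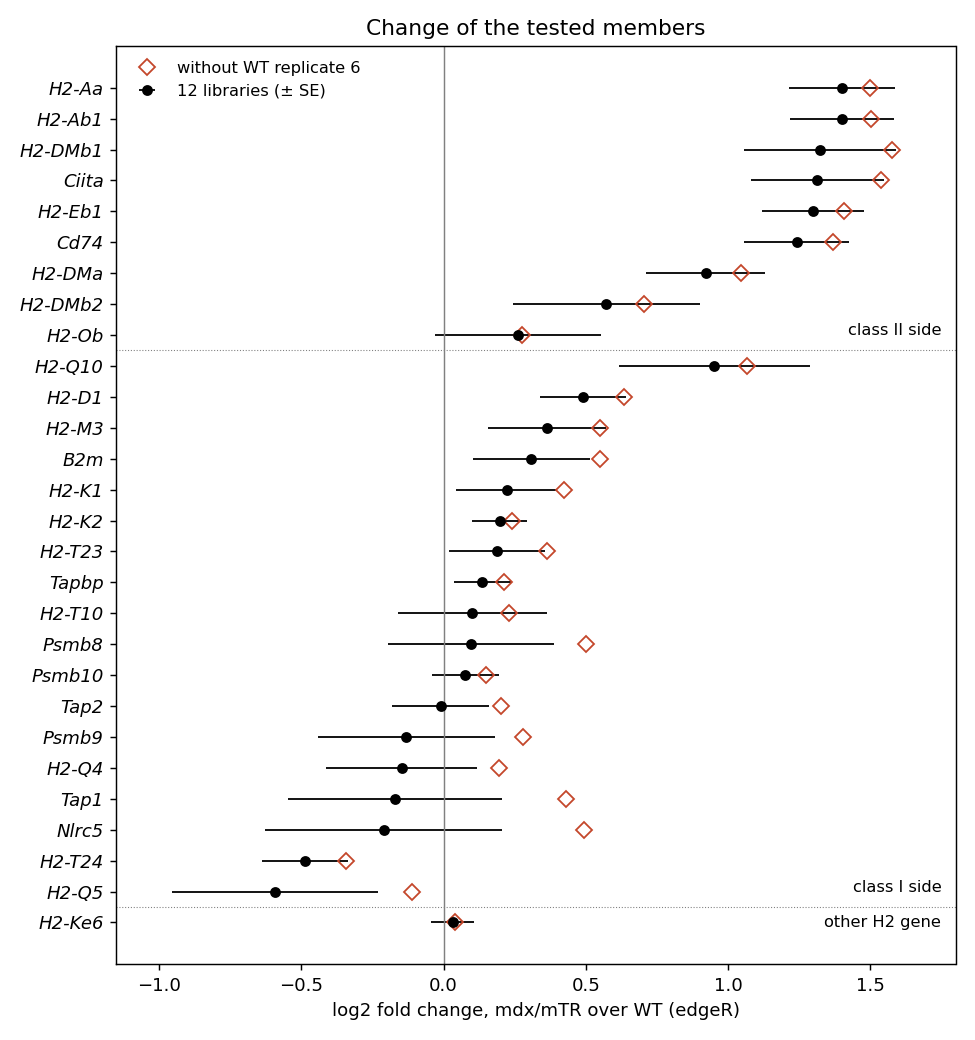
Change between the groups (log2, mdx/mTR over WT) for the 28 tested members, from edgeR, as black points with the SE over all 12 libraries and open diamonds for the fit without WT replicate 6. The class II side has a median of 1.30 and the class I side of 0.10, and most class I diamonds lie to the right of their points (median 0.32).

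On a per-length scale (mean CPM per kb of the longest coding transcript), the order of the main members differed between the groups. In WT it ran from B2m (118 CPM per kb) through Cd74 (57.9), H2-K1 (46.7), H2-Aa (31.2), H2-Ab1 (23.9) and H2-Eb1 (17.9) to H2-D1 (13.2). In mdx/mTR it ran from B2m (146 CPM per kb) and Cd74 (137) through H2-Aa (82.3), H2-Ab1 (63.0), H2-K1 (54.5) and H2-Eb1 (44.0) to H2-D1 (18.6). H2-K1 thus stood above the I-A chains in the WT means and below them in the mdx/mTR means. These orders are descriptions, and neighbours in them were not tested.

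Genes outside the rule that act in the same routes, and markers of cell types, were read from the same fit, in which 25.0% of all tested genes were higher and 23.4% lower. Of 9 genes of the class II route, 8 were tested, 5 rose and 0 fell, with a median log2 fold change of 0.93. Ctss, the cathepsin S that trims the invariant chain, ranged from 4.14 through 6.29 to 9.16 CPM in WT and from 27.1 through 49.3 to 91.6 CPM in mdx/mTR, without overlap (3.01 ± 0.31, adjusted p 6.7e-06). Lgmn, the legumain protease of endosomes, rose by 1.52 (adjusted p 7.7e-06), and Ifi30, a thiol reductase that unfolds antigens there, by 1.36 (adjusted p 0.00021). The others called were the co-stimulator Cd86 (1.29) and Rfx5 (0.29), the X box factor on which Ciita and Nlrc5 dock. Rfxap, Rfxank and Cd40 were not called, and Cd80 was too low to test.

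Of 10 tested genes of the class I route outside the rule, 3 rose, 3 fell and 4 were not called, with a median of 0.01, shares near those of all tested genes (25.0% higher, 23.4% lower). Cd1d1, a class I-like molecule for lipids, rose by 0.82 (adjusted p 0.0072), and Pdia3, a member of the loading complex, by 0.43 (adjusted p 0.019). Erap1, which trims peptides in the endoplasmic reticulum, fell by 0.40 on the log2 scale (adjusted p 0.00073). Of 8 interferon gamma pathway genes, 7 were tested, 2 rose and 3 fell, with a median of -0.19. Socs1, a feedback inhibitor, rose by 0.94 (adjusted p 0.0095), Ifngr1, a receptor chain, rose by 0.39 (adjusted p 0.0026), and the kinase Jak2 fell by 0.66 on the log2 scale (adjusted p 6.6e-05). Irf1, a factor that carries the signal to MHC genes, was at 0.02 (adjusted p 0.92), and at 0.23 without WT replicate 6 (adjusted p 0.089). Ifng itself was too low to test, with 0 counts in WT and 9 over the mdx/mTR libraries.

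Macrophage markers, and most dendritic cell markers, were higher together with the class II genes, and B cell markers were not called. Of 9 macrophage markers 8 rose and 0 fell (median 1.74), and their summed level ranged from 66.7 to 110 CPM in WT and from 158 to 438 CPM in mdx/mTR, without overlap, a 3.01-fold ratio of means. Of 7 dendritic cell markers 5 rose and 0 fell (median 0.86), and their sum ranged from 9.18 to 11.8 CPM and from 12.2 to 21.1 CPM, with Itgax, which macrophages also express, at 2.47 on the log2 scale (adjusted p 4.7e-05). Of 5 B cell markers 2 could be tested and neither was called, with overlapping sums of 0.416 to 2.09 CPM and 0.732 to 1.78 CPM. In whole muscle, more cells of a type and more RNA per cell cannot be told apart. Class II chains per unit of the macrophage marker sum were 0.782 through 1.12 to 1.31 in WT and 0.703 through 0.936 to 1.38 in mdx/mTR, with overlap between the groups. The part of these cells in the class II values was not tested beyond this.

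Markers of other cell types were read in the same way. Of 7 T cell markers only Cd4 could be tested, which macrophages can also express, and it rose by 2.84 (adjusted p 4.2e-05), with a list sum of 0.222 to 0.849 CPM in WT and 1.83 to 4.13 CPM in mdx/mTR. None of the 5 NK cell markers could be tested, and their sum ranged from 0.111 to 0.425 CPM and from 0.984 to 2.58 CPM. Of 5 neutrophil markers, 4 were in the table, 2 were tested and 1 rose, with sums of 0.306 to 1.14 CPM and 0.540 to 5.30 CPM, the last in mdx/mTR replicate 5. Of 5 endothelial markers 3 fell and 0 rose (median -0.27), of 5 fibroblast markers 4 rose and 0 fell (median 0.91), and of 5 muscle fibre markers 2 fell and 0 rose (median -0.24). In WT replicate 6 the T cell sum (0.575 CPM) and NK cell sum (0.356 CPM) lay within the range of the other WT libraries, while the macrophage sum (110 CPM, the next 97.1 CPM) and the dendritic cell sum (11.8 CPM, the next 10.99 CPM) were the highest of WT. The part of these cell types in the class I values was not tested.

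**Figure D4:**
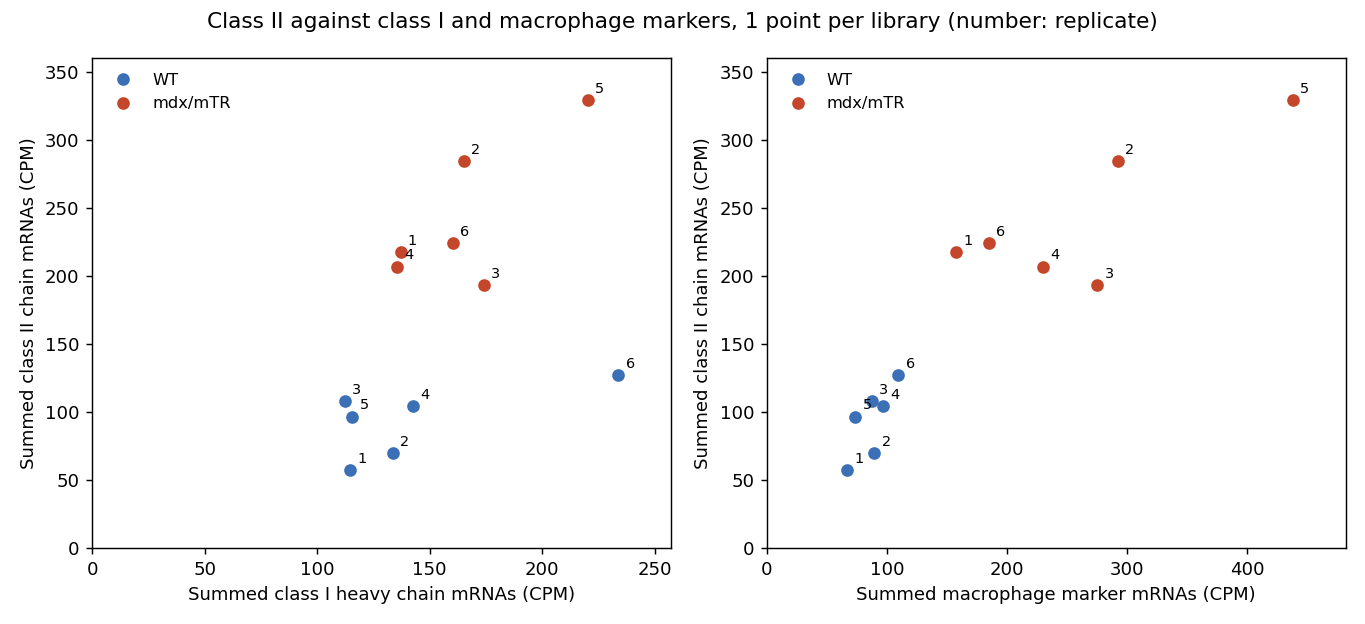
Summed CPM of the class II chains (H2-Aa, H2-Ab1, H2-Eb1, H2-Eb2 and H2-Ea-ps) in each library against the summed CPM of the class I heavy chains (left) and of 9 macrophage markers (right), with WT in blue, mdx/mTR in red and the replicate number beside each point. On the left the groups separate upward, at 57.2 to 127 CPM against 193 to 329 CPM, and overlap sideways, with WT replicate 6 (234 CPM) farthest right. On the right they separate on both axes.

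The remaining 25 members could not be tested, 22 of them on the class I side and 3 on the class II side. A total of 12 had 0 counts in all 12 libraries, which allows up to 0.0460 to 0.0837 CPM per library (3 counts, counting error only). Of these, H2-L, H2-Q8, H2-Q9 and H2-T9 have no GENCODE M21 entry under those names, and H2-Q6 and H2-Q7 share 32.0% and 34.9% of their 50-base stretches with other genes. How the authors treated reads that match several genes is not given in the sources used here, so a 0 for these close relatives need not be absence. Of the 28 tested members, 9 share more than 10% of their stretches with another gene, H2-Ke6 (62.9%, with Gm20427) more than 50%, while H2-Aa, H2-Ab1, H2-Eb1, Cd74 and Ciita share 0%. H2-Ke6 was at 0.03 (adjusted p 0.75). Exons of Psmb9 and Tap1 overlap on opposite strands by 212 bases (5.79% and 3.87% of their exonic bases), and strand handling is not given either. Larger shares lie opposite exons of genes outside the members in H2-T10 (27.1%), Tapbp (24.9%), H2-Q4 (19.1%), Psmb8 (14.7%), Tap2 (14.1%) and H2-DMa (10.4%).

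Only 2 untested members had more than 10 counts in a library. H2-M2 had 3 counts over the 6 WT libraries (0 to 2 each) and 54 over the 6 mdx/mTR libraries (2 to 18 each). It is named only because mdx/mTR libraries passed 10 counts, so no test is given for it. H2-T22 had 47 and 38 counts. In the authors' deposited table, 9 of the 28 tested members were higher and 1 lower at an adjusted p below 0.05, and 0 members were called there and not here or the reverse. That table gives a log2 fold change of 1.31 for H2-Ab1, 1.31 for H2-Aa and 1.16 for Cd74.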

How the data were processed

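RNA of 12 tibialis anterior muscles (6 WT, 6 mdx/mTR) was sequenced. The authors deposited whole-number counts per gene symbol, 1 column per mouse, and 0 columns were unmatched to a sample. STAR, FastQC, DESeq2 and mm10 are named in the submitters' processing notes, without versions. The counter, annotation, strand setting and treatment of multiply matching reads are not given in the sources used here. A second table by the authors lists, per the file headers, a mean normalised signal per gene, the log2 fold change with its SE, the score of the test, and raw and adjusted p-values.

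The counts as deposited were tested with edgeR 4.0.16 in R 4.3.3. Genes passing filterByExpr (13937 genes, 99.97% of counts) were scaled by TMM (trimmed mean of M-values) and fitted by glmQLFit and glmQLFTest with group as the only term, and p-values were adjusted by Benjamini-Hochberg over all tested genes (threshold 0.05). Levels are CPM on TMM-scaled totals. The SE is the log2 fold change divided by the square root of F. Count ratios were compared by exact permutation in scipy 1.17.1. Groups and replicate numbers came from the labels. No 2 replicates were alike within sampling noise (chi-square per degree of freedom 9.29 to 122). A floor of 3 counts is 0.0460 to 0.0837 CPM.

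Every member that passed the filter was named, as were untested members above 10 counts in a library and the 3 largest called changes of each pathway list. Other genes were named after their values were seen. The members, lists and tests were chosen with earlier results of these data known. Promoters came from RefSeq (GRCm38.p6) and were searched on both strands. Shared sequence is the percentage of a gene's 50-base stretches, read along its longest coding transcript (or the longest other one where it has none, as for H2-K2 and H2-Q5), found in another gene of GENCODE M21, and exons and gene positions are from the same annotation. On simulated counts for the 13937 genes with 200 changed, edgeR recovered 94.5% with 6 false calls. The simulation held no library that stood apart like WT replicate 6. Far fewer of its genes changed than the 48.3% called in the data, so its figures do not measure how reliable the calls reported here are. Alternatives were DESeq2 1.42.0, limma-voom 3.58.1, other scalings, filters and thresholds, a replicate block and each library left out, with the joint omission of WT replicate 6 and mdx/mTR replicate 5 added after seeing the data. Protein sequences were not used here, and some genes of the lists are counted but not reported singly here.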

Additional observations from a re-analysis of the deposited data

Results flagged for a closer look

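A library was picked out where its gap to the nearest of the other 5 as a share of the range of its group exceeded Dixon's 95% limit for 6 samples. This was examined in 68 groups of 6, of which chance gives 3.4, and 21 exceeded it. All 18 in WT were high values of WT replicate 6, and all 3 in mdx/mTR were high values of replicate 5. Members of a library are not independent, so the 21 are not separate events.

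On the class II side WT replicate 6 stood apart for Ciita, with 3.72 CPM, the other WT libraries being at 1.54 to 2.29 CPM. Among heavy chains it stood apart for H2-K1 (125 CPM), H2-Q4 (31.8 CPM), H2-Q5 (2.49 CPM), H2-T24 (8.45 CPM) and H2-T23 (16.1 CPM), and the summed heavy chains were at 234 CPM against 112 to 143 CPM. Among the light chain, transport and control genes it stood apart for B2m (180.5 CPM), Tapbp (49.0 CPM), Tap1 (24.0 CPM), Tap2 (27.0 CPM) and Nlrc5 (16.2 CPM against 2.39 to 4.30 CPM). The immunoproteasome subunits were at 13.3 CPM for Psmb8, 7.66 CPM for Psmb9 and 14.2 CPM for Psmb10 there. Their count ratios were also high, at 0.402 for Psmb8 over Psmb5, 0.0744 for Psmb9 over Psmb6 and 0.0766 for Psmb10 over Psmb7.

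In mdx/mTR, replicate 5 stood apart for Tapbp (54.8 CPM), H2-T23 (16.6 CPM) and H2-T10 (1.13 CPM).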

How the results depend on the processing

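The count of 7 class II side members called higher was the same under every alternative run. For all members called higher, the count of 9 became 14 without WT replicate 6 and ranged from 8 to 14 when 1 library was left out. The 1 member called lower (H2-T24) became 0 with library totals alone and 0 at a threshold of 0.01. The 2 class I side members called higher became 1 with at least 1 CPM in 6 libraries, 1 with limma-voom and 0 at a threshold of 0.01. They became 3 with library totals alone, 3 with no filter on low counts and 3 with DESeq2. With WT replicate 6 and mdx/mTR replicate 5 left out the class I side count was 6. It ranged from 1 to 7 with 1 library left out, the 7 being without WT replicate 6. Estimates that changed sign were those of 8 genes not called over the 12 libraries. With library totals alone Psmb9 was 0.027, Tap2 0.15 and H2-Q4 0.0086, and Tap2 was 0.029 with upper quartile scaling and 0.0037 with at least 1 CPM in 6 libraries. H2-K2 (0.36) and H2-Ke6 (0.18) were called with library totals alone. With limma-voom Psmb9 was 0.013, Tap1 0.052, Tap2 0.033 and Nlrc5 0.070. With the replicate block Tap1 was 0.041, Tap2 0.035 and Nlrc5 0.054. With WT replicate 6 and mdx/mTR replicate 5 left out Psmb9 was 0.18, Tap1 0.25, Tap2 0.14, H2-Q4 0.11 and Nlrc5 0.33. With 1 library left out, from lowest to highest, Psmb9 ranged from -0.26 to 0.28, Tap1 from -0.35 to 0.43, Psmb8 from -0.073 to 0.50, Tap2 from -0.074 to 0.20, H2-Q4 from -0.27 to 0.20, H2-T10 from -0.12 to 0.23, Nlrc5 from -0.38 to 0.49 and Psmb10 from -0.0099 to 0.15. Psmb8 was below 0 only without mdx/mTR replicate 5, as were H2-T10 and Psmb10. The log2 ratio of Psmb8 over Psmb5 ranged from -0.23 to 0.21 and that of Psmb9 over Psmb6 from -0.24 to 0.18 with 1 library left out. In a paired analysis with the replicate block, H2-Ab1 over H2-K1 (1.17, which pairing cannot change) had an adjusted p of 0.125 by exact sign flips over the 4 ratios. The raw p was the smallest that 6 pairs allow, and adjustment beside ratios with high p-values raised it. Correlations of deviations between libraries of the same replicate number were -0.139 to 0.334, 2 of 6 over 0.1. They were not compared with those of unlike numbers, so whether the numbers pair the samples is not settled. The block called 6420 of all genes against 6736. Scaling by library totals raised the all-gene median by 0.156 on the log2 scale and the share of calls that were higher from 51.6% to 78.2%. Over all genes, calls ranged from 6125 to 6816 with 1 library left out and from 4621, at a threshold of 0.01, to 7259, with DESeq2. The causes of these changes were not tested, and members near 0.1 CPM are limited by depth.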
